A study of Mus musculus with 28 samples.

Results

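The RNA of the somatic cells of the fetal mouse testis was compared with that of the germ cells they enclose, both from male C57BL/6 embryos at E13.5. The comparison uses 7 of the 28 samples of the series, which holds 16 RNA libraries in all: 1 soma library, 1 C57BL/6 germ cell library, and 5 further libraries of control male germ cells from a Setdb1 cross. Both C57BL/6 libraries are wildtype. The cross libraries are 1 of genotype WT (Setdb1 flox/+), 2 of Het1 (Setdb1 delta/+) and 2 of Het2 (Setdb1 flox/-), where Setdb1 encodes a histone H3K9 methyltransferase. The labels name no treatment, do not give the Cre line or the background strain of the cross, and do not say whether a library is 1 embryo or a pool. Flow cytometry separated the germ cells by SSEA1, a carbohydrate antigen on their surface, and the soma is the SSEA1-negative remainder of the gonad. Both fractions went straight into a nuclear isolation buffer. The SSEA1-negative remainder is a mixture of all its somatic cell types, so for every value below fewer cells of a type and less RNA per cell cannot be told apart.

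At this age the XY gonad has begun to form a testis. Sertoli cells surround the germ cells in cords, secrete anti-Müllerian hormone and the ligand Desert hedgehog, and direct the germ cells away from meiosis. Between the cords lie androgen-producing fetal Leydig cells, stromal progenitors, peritubular myoid cells, vessels and macrophages. The primordial germ cells still transcribe pluripotency genes, have lost most of their DNA methylation, and switch on a set of germline genes that somatic cells keep silent through methylated promoters.

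Values are RPKM (reads per kilobase of transcript, scaled to library size), which compare levels between genes per length. A log2 ratio is always log2((soma + 1)/(C57BL/6 germ cells + 1)) in RPKM, so it understates the change of genes with low values. A gene was tested if it reached 1 RPKM in either C57BL/6 library. It was called higher in soma, or higher in germ cells, when that ratio was at least 4-fold and the soma library lay outside the range of all 6 germ cell libraries. With 1 library a side this is a rule of size and no p-value is given. The counts of reads behind the RPKM values are unknown, and a gene listed at 0 is given as such: 4876 genes are listed at 0 in soma and 5479 to 6651 in the germ cell libraries. The germ cell libraries resembled each other in rank correlation across genes (0.952 to 0.979), more than they resembled the soma (0.853 to 0.873); genes are not independent replicates. Het1 replicate 1 stood apart from the other cross libraries: of 70 list sums and named genes checked for a library far from the other 4, it was the odd library in 15 of the 17 cases found. These cases overlap, since some of the named genes also enter a list sum. The cross libraries enter the calls only through the range condition, which set aside 3 genes that were 4-fold higher in soma and 2 that were 4-fold higher in germ cells.

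Of 22138 genes in the table, 13457 were tested. Soma was higher at 1720 genes (12.8% of those tested) and germ cells at 605 (4.5%), together 2325 (17.3%). The same 4-fold step between the C57BL/6 germ cells and each cross library took in far fewer genes, with 76 (0.62%) for WT, 53 (0.442%) and 30 (0.248%) for Het1 replicates 1 and 2, and 9 (0.0758%) and 25 (0.207%) for Het2 replicates 1 and 2. The other 11132 tested genes were not called, 4516 genes (33.6% of those tested) lay within 1.5-fold, and the median log2 ratio over all tested genes was 0.14. The genes called in soma took 21.4% of the summed RPKM of the soma library against 1.37% of the C57BL/6 germ cell library. The genes called in germ cells were fewer and took 10.6% of the summed RPKM there and 1.49% in soma. The rule chose both sets by the values of these same libraries, so each contrast follows in part from that choice. The shares describe how much of each library the sets make up and are no separate evidence of a difference. On the log2(RPKM + 1) scale 602 genes were at least 10-fold higher in soma and 153 at least 10-fold higher in germ cells. At least 100-fold, 11 genes were higher in soma and 7 in germ cells.

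The split between the directions depends on scaling. As deposited, 74.0% of called genes were higher in soma. When each library was centred on the median of its genes, this share was 58.3%, and after quantile normalization 59.0%, when the median log2 ratio of tested genes became -0.14. A stricter rule, chosen after the values were seen, asks for 4-fold against every one of the 6 germ cell libraries, and left 1066 genes higher in soma (7.92%) and 383 higher in germ cells (2.85%).

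**Figure D1:**
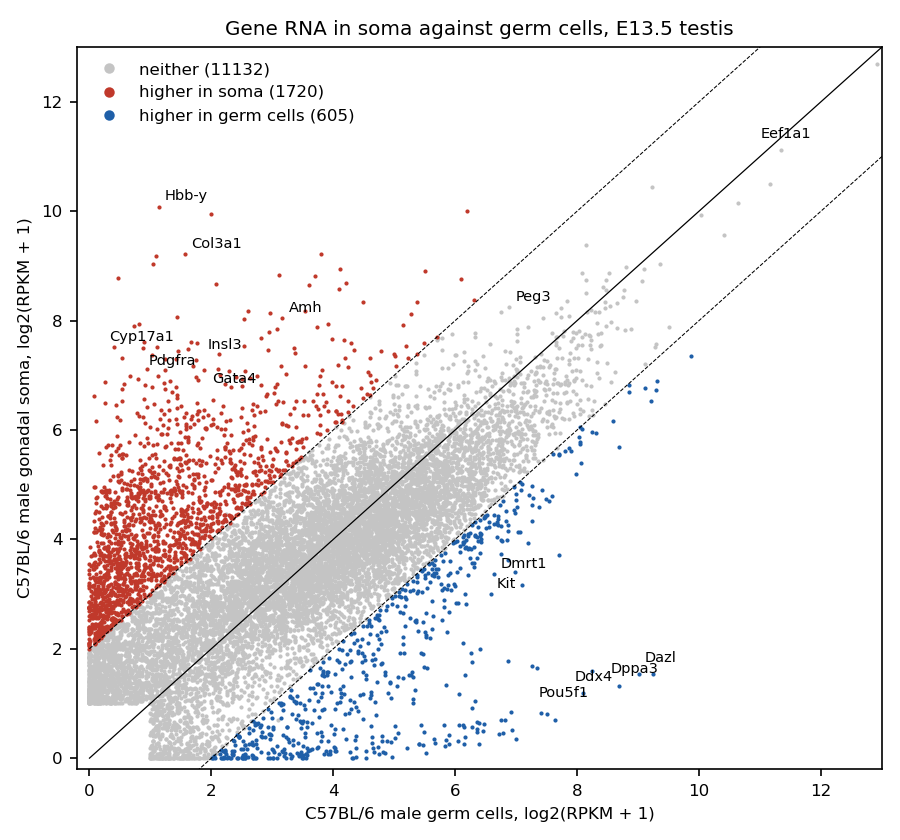
Each point is 1 tested gene, with its level in C57BL/6 germ cells on the x axis and in C57BL/6 soma on the y axis, both as log2(RPKM + 1). The solid line marks equal levels and the dashed lines 4-fold. The 1720 genes called higher in soma are red and the 605 called higher in germ cells blue. Hbb-y, Col3a1 and Cyp17a1 lie far above the solid line, while Dazl, Dppa3, Ddx4 and Pou5f1 lie far below it.

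The lowest log2 ratio was that of Dazl. This gene, an RNA-binding regulator that germ cells need for their development, had 1.89 RPKM in soma against 607 in C57BL/6 germ cells, and the 6 germ cell libraries ran from 567 through a median of 689 to 760. The soma level is 0.311% of the germ cell level. Ddx4, the germ cell RNA helicase also called Vasa, had 1.28 RPKM in soma and 273 to 317 in germ cells. Its germ cell values were close together and the soma lay far below all of them. After Dazl, the next by log2 ratio were Dppa5a, Dppa3 and Sall4, and the 20 genes with the lowest ratios also included Pou5f1, Utf1, Tex19.1, Tuba3a, Stk31, Sohlh2, Dppa4, Tcl1, Trim71, L1td1, Fkbp6, Cpeb1, Slc25a31, Sox2 and Lin28a. Dppa3 (Stella), which protects methylation in the early embryo, ranged from 409 to 843 RPKM in germ cells and was at 1.5 RPKM in soma.

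Of 23 tested genes of pluripotency and germ cell specification, 21 were higher in germ cells and 1 in soma, with a median log2 ratio of -5.77. The 21 are 91.3%, against 4.5% of all tested genes. All 21 held that call against every germ cell library. Pou5f1 (Oct4), the central pluripotency factor, had 0.75 RPKM in soma and a range of 131 to 278 in germ cells with a median of 160. Nanog was at 0.31 RPKM in soma and 40.9 to 70.7 in germ cells, and Sox2 at 0.4 RPKM and 77.0 to 97.9. The specification factors Prdm1 (Blimp1) and Prdm14 had lower germ cell levels, at 27.7 to 37.9 and 18.97 to 30.2 RPKM, with 1.76 and 0.02 RPKM in soma. The exception was Klf4, a pluripotency factor that many somatic cells use too: it had 24.2 RPKM in soma and 3.64 to 9.24 in germ cells. Its log2 ratio of 2.03 lies just past the threshold, and it is not 4-fold higher than in Het2 replicate 1. Fgf4 was near 0 in every library and was not tested.

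Among 26 tested genes for germ cell surface proteins and RNA-binding proteins, 73.1% were higher in germ cells, against 4.5% of all tested genes. There were 19 of them, with 0 higher in soma (median log2 ratio -3.51). The adhesion genes Cdh1 (E-cadherin) and Epcam belong to these, at 65.5 to 76.7 and 138 to 216 RPKM in germ cells against 0.53 and 2.22 RPKM in soma. The piRNA pathway gene Piwil2 had 0.53 RPKM in soma and 37.9 to 84.8 in germ cells. The male fate gene Nanos2, which blocks meiosis in XY germ cells, varied widely: 6.69 RPKM in C57BL/6, 0.79 in WT, 57.6 and 1.59 in Het1 replicates 1 and 2, and 9.05 and 1.96 in Het2 replicates 1 and 2. Soma had 0.35 RPKM, below all 6 but less than 4-fold below the lowest on the ratio scale used. Of the fucosyltransferases that can make the sorted antigen, Fut4 was at 4.09 RPKM in soma and 0.88 to 2 in germ cells, and Fut9 was too low to be tested, at 0.13 RPKM in soma and 0.47 to 2.11 in germ cells. For Fut4 the soma lay above all 6 germ cell libraries and for Fut9 below them, both under 5 RPKM. Itga6 (integrin alpha 6), also on this list, had 38.4 RPKM in soma and 9.53 to 14.2 in germ cells, a log2 ratio of 1.82 that did not reach the threshold.

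Germline genes that somatic cells silence by promoter methylation were almost absent from the soma. Their summed RPKM in soma was 0.81 to 1.11% of that in each germ cell library. Of 26 tested, 21 were higher in germ cells (80.8%, against 4.5% of all tested genes), 19 of them against every germ cell library. In soma 0 were higher, and the median log2 ratio was -4.44. Among those listed at 0 in soma were Hormad1, a chromosome axis protein of meiosis with 22.3 to 46.1 RPKM in germ cells, and Tex12 with 18.5 to 42.7. The kinase gene Stk31 had 0.43 RPKM in soma and 105 to 265 in germ cells, and Slc25a31, an ADP/ATP carrier of germ cell mitochondria, had 0.19 RPKM and 60.9 to 164. Het1 replicate 1 gave the highest germ cell value for Stk31, Slc25a31, Fkbp6 and Mael. The 5 tested genes that were not called had low germ cell levels or some RNA in soma: Taf7l, Tex13, Brdt, Sycp1 and Tex15.

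The promoters of these silenced genes share a short sequence more often than promoters in general. RefSeq promoters (GRCm38.p6, the 250 bases before the annotated start; the RNA values were made on mm9) were matched by symbol to 26 of the 29 listed genes in the table. The letters CACGTG, the E-box read the same on both strands that MYC, MAX and USF proteins can bind, occur in 14 of these 26 (53.8%). They occur in 6.05% of all 27025 promoters, 8.65% of those of tested genes, 10.3% of those of genes higher in germ cells and 6.55% of those of genes higher in soma. The 14 are Sycp1, Sycp3, Mael, Taf7l, Hormad1, Brdt, Slc25a31, Tdrd1, Stk31, Mov10l1, Tex12, Stag3, Ddx4 and Fkbp6. The list was drawn up from knowledge of these genes, and the share is a description of their promoters. Shown are 5 that were far higher in germ cells, each 5′ to 3′ on the gene's strand with CACGTG in capitals: Slc25a31 (chr3:40708621-40708870, plus strand), Stk31 (chr6:49395289-49395538, plus), Mael (chr1:166238745-166238994, minus), Ddx4 (chr13:112652311-112652560, minus) and Fkbp6 (chr5:135350045-135350294, minus).
Slc25a31: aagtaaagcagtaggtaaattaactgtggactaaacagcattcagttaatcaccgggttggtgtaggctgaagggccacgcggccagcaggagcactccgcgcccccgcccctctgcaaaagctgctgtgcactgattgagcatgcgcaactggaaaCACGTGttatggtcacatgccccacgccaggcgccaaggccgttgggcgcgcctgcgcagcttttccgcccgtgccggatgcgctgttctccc
Stk31: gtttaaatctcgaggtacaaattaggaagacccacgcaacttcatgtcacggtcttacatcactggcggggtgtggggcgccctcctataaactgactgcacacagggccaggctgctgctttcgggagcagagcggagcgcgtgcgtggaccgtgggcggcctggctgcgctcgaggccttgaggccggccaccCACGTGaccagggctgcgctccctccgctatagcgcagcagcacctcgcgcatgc
Mael: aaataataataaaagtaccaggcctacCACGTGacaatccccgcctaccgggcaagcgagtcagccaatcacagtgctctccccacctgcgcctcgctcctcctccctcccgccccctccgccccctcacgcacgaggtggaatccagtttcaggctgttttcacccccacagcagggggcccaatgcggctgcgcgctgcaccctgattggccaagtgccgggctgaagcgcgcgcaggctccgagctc
Ddx4: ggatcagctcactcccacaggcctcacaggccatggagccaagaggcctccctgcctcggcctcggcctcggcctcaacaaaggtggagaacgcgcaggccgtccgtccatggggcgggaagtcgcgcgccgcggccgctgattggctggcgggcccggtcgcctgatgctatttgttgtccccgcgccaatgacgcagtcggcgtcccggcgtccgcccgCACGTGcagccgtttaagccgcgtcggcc
Fkbp6: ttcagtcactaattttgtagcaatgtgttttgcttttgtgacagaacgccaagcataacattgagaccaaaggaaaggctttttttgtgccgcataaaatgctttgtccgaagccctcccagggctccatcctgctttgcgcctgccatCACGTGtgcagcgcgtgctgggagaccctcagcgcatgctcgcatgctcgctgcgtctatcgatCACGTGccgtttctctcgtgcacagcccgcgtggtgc
The match begins 93 bases before the start in Slc25a31, 55 in Stk31, 223 in Mael and 29 in Ddx4, and Fkbp6 has matches at 101 and 37. In C57BL/6 germ cells these genes had 69.3 (Slc25a31), 120 (Stk31), 81.1 (Mael), 273 (Ddx4) and 107 RPKM (Fkbp6), and in soma each was under 1.3 RPKM.

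The other letters searched, on both strands and with none contained in another, differed less or rest on few promoters. ATGCAAA, the core of the octamer that Pou5f1 binds, is in 3 of 15 matched pluripotency promoters (Nanog, Sox2 and Zfp42), in 5.25% of promoters of genes higher in germ cells and in 4.06% of all. AAGGTCA, a half-site for Nr5a1, is in 2.89% of promoters of genes higher in soma, 2.69% of tested ones and 4.05% of all. AGATAA, which factors such as Gata4 bind, stands at 5.96%, 5.67% and 10.3% in the same order. GCGGGA, part of an E2F site, stands at 28.2%, 31.2% and 16.9%.

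Genes of meiosis, which XY germ cells do not enter at this age, were partly on. Of 21 tested, 11 were higher in germ cells (52.4%, against 4.5% of all tested genes) and 0 in soma (median log2 ratio -2.08). The cohesin gene Smc1b had 0.53 RPKM in soma and 66.1 to 95.8 in germ cells, and Stag3, another meiotic cohesin subunit, had 2.77 and 61.1 to 88.9 RPKM. Stra8, which starts meiosis in response to retinoic acid, was not tested: it was listed at 0 in soma, WT and Het2 replicate 2, and reached 2.3 RPKM at most, in Het1 replicate 1. Spo11, which cuts DNA for meiotic recombination, stayed between 3.22 and 5.1 RPKM in germ cells.

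**Figure D2:**
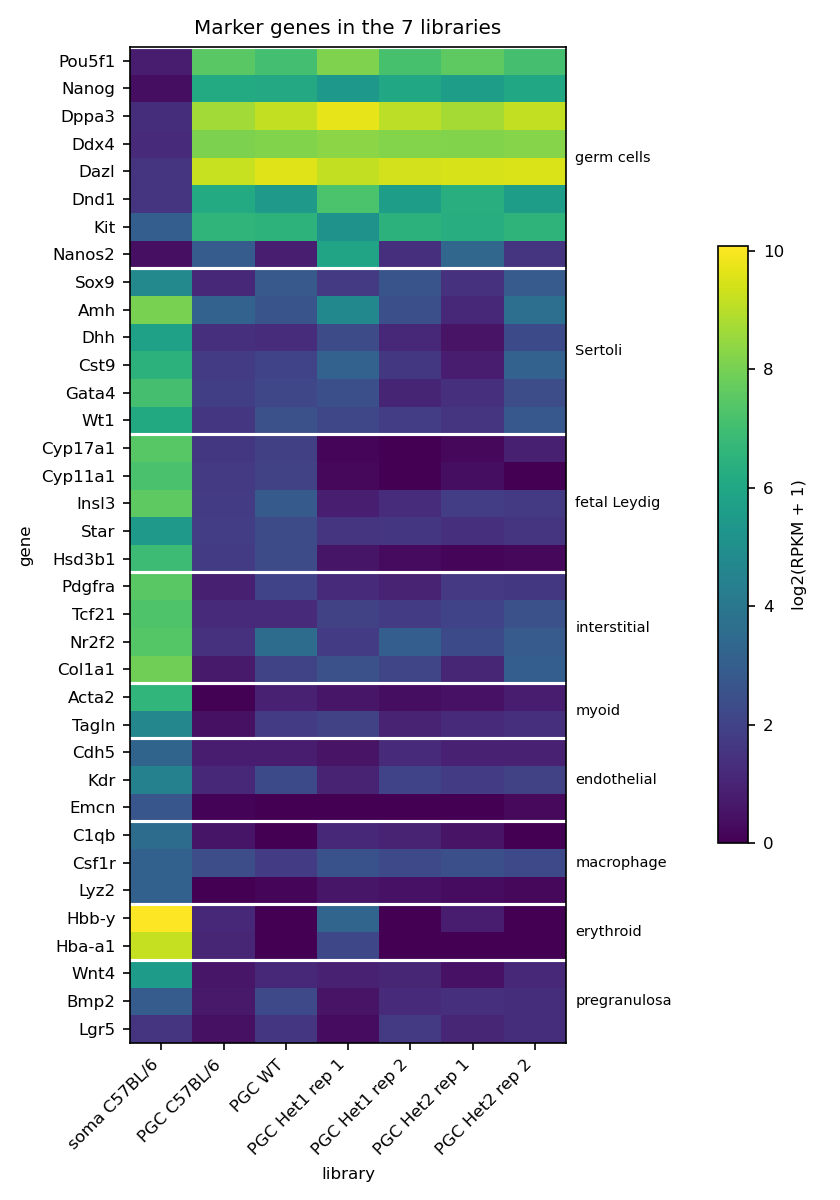
Levels of marker genes as log2(RPKM + 1), from dark (0) to yellow (high), with 1 row per gene grouped by the cell type it marks and 1 column per library, soma on the left and the 6 germ cell libraries to its right. The germ cell genes other than Nanos2 are low in the soma column and high in the other 6. Most somatic and globin genes show the reverse, while Csf1r and Lgr5 differ little. Nanos2 is highest in Het1 replicate 1 (57.6 RPKM) and low in WT, Het1 replicate 2 and Het2 replicate 2.

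Most Sertoli cell genes were higher in soma. Of 28 tested, 23 were higher in soma (82.1%, against 12.8% of all tested genes), 21 of them against every germ cell library. In germ cells 1 was higher, and the median log2 ratio was 3.53. Amh, the hormone that removes the Müllerian duct, had 263 RPKM in soma and 1.26 to 25.1 in germ cells with a median of 6.51. The transcription factors Gata4, Wt1 and Nr5a1, needed to build the gonad and its Sertoli cells, had 136, 68.0 and 77.5 RPKM in soma and no more than 5.81 in any germ cell library. Sox9, which fixes Sertoli identity, was at 25.7 RPKM in soma and 1.2 to 6.45 in germ cells. Sry, whose pulse precedes Sox9, was at 0.04 RPKM in soma and listed at 0 in all 6 germ cell libraries. Dmrt1, a gene of both Sertoli and germ cells, ran the other way, with 9.33 RPKM in soma and 49.8 to 98.8 in germ cells. The summed Sertoli list in germ cells was 9.03 to 17.1% of that in soma, highest in Het1 replicate 1. Dmrt1 alone gave 98.8 of the 148 RPKM of that sum in C57BL/6 germ cells, and without it the sum was 3.82% of soma there and 2.35 to 9.69% over the 6 libraries.

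Genes of the steroid-producing fetal Leydig cells were called in soma or not at all. Of 21 tested genes, 15 were higher in soma (71.4%, against 12.8% of all tested genes) and 0 in germ cells (median log2 ratio 3.02). Insl3, the Leydig hormone that guides testis descent, had 192 RPKM in soma and 0.79 to 6.24 in germ cells. Cyp17a1, which makes androgens from progestins, had 177 RPKM in soma, 2.07 in C57BL/6 germ cells, 2.8 in WT and 0 to 0.87 in the 4 Het libraries. Cyp11a1, which makes the first steroid from cholesterol, followed with 144 RPKM in soma, 2.26 and 3.02 in C57BL/6 and WT germ cells, and 0 to 0.28 in the Het libraries. Hsd3b1 and Ren1, the latter a renin gene active in Leydig cells, had 120 and 93.5 RPKM in soma. The luteinizing hormone receptor Lhcgr was at 7.59 RPKM in soma and at most 0.17 in germ cells. Hsd17b3, which completes testosterone synthesis and at this age is a Sertoli gene, had 18.95 RPKM in soma and 0 to 1.43 in germ cells. Among the 6 tested genes not called were Por, Cyb5, Scarb1 and Fdx1, which other cells also use, and Mc2r, at 1.01 RPKM in soma and listed at 0 in germ cells.

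Genes that make cholesterol, the raw material of these steroids, were not among the differences. Of 20 tested, 0 were called in either direction, against 17.3% of all tested genes. The median log2 ratio of -0.26 became 0.02 when the mean of the 5 cross libraries stood in for C57BL/6. Fdft1, at the branch towards sterols, had 25.4 RPKM in soma and 59.7 to 91.6 in germ cells. Pmvk was the furthest the other way, at 18.6 and 3.45 to 7.17 RPKM.

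Stromal genes had some of the largest differences outside blood. Of 26 tested interstitial and stromal genes, 23 were higher in soma (88.5%, against 12.8% of all tested genes) and 0 in germ cells. Their median log2 ratio was 4.25. Col3a1, a fibrillar collagen, had 590 RPKM in soma and 1.97 to 5.24 in germ cells. Tcf21, a transcription factor of interstitial progenitors, had 157 RPKM in soma and at most 4.68 in germ cells. Nr2f2 (COUP-TFII), another interstitial factor, had 173 RPKM in soma and 1.74 to 10.9 in germ cells. Peritubular myoid genes, whose products give the cords a contractile wall, were higher in soma at 7 of 7 tested, led by Acta2 (smooth muscle actin) at 97.5 RPKM against 0.05 to 0.91. The smooth muscle genes Myh11 (4.24 RPKM in soma), Cnn1 (0.64) and Actg2 (0.85) were low, and the last pair were not tested. Of 38 tested collagen and basement membrane genes, 31 were higher in soma and 0 in germ cells, with a median of 4.44. Col4a1, a basement membrane collagen, had 404 RPKM in soma and 3.22 to 6.42 in germ cells. Fibronectin (Fn1) and nidogen 2 (Nid2) were not called, with 155 RPKM in soma and 148 to 190 in germ cells for Fn1, and 54.8 and 65.9 to 104 for Nid2. The germ cell range took in the soma value of Fn1 and lay above that of Nid2, while Nid1 was at 122 RPKM in soma and 4.16 to 7.31 in germ cells.

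Genes of the coelomic epithelium and early gonad were higher in soma at 12 of 18 tested and higher in germ cells at 2. These are 66.7% and 11.1%, against 12.8% and 4.5% of all tested genes. Lhx9 and Osr1, factors of the early gonad, had 28.45 and 9.82 RPKM in soma and at most 0.8 and 0.23 in germ cells. One of those higher in germ cells was Six4, a homeobox gene that acts upstream of the testis switch, at 6.14 RPKM in soma and 36.8 to 63.8 in germ cells. Emx2, needed for the urogenital epithelium, was not called: soma had 21.1 RPKM and the germ cell libraries spanned 2.27 to 27.3.

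**Figure D3:**
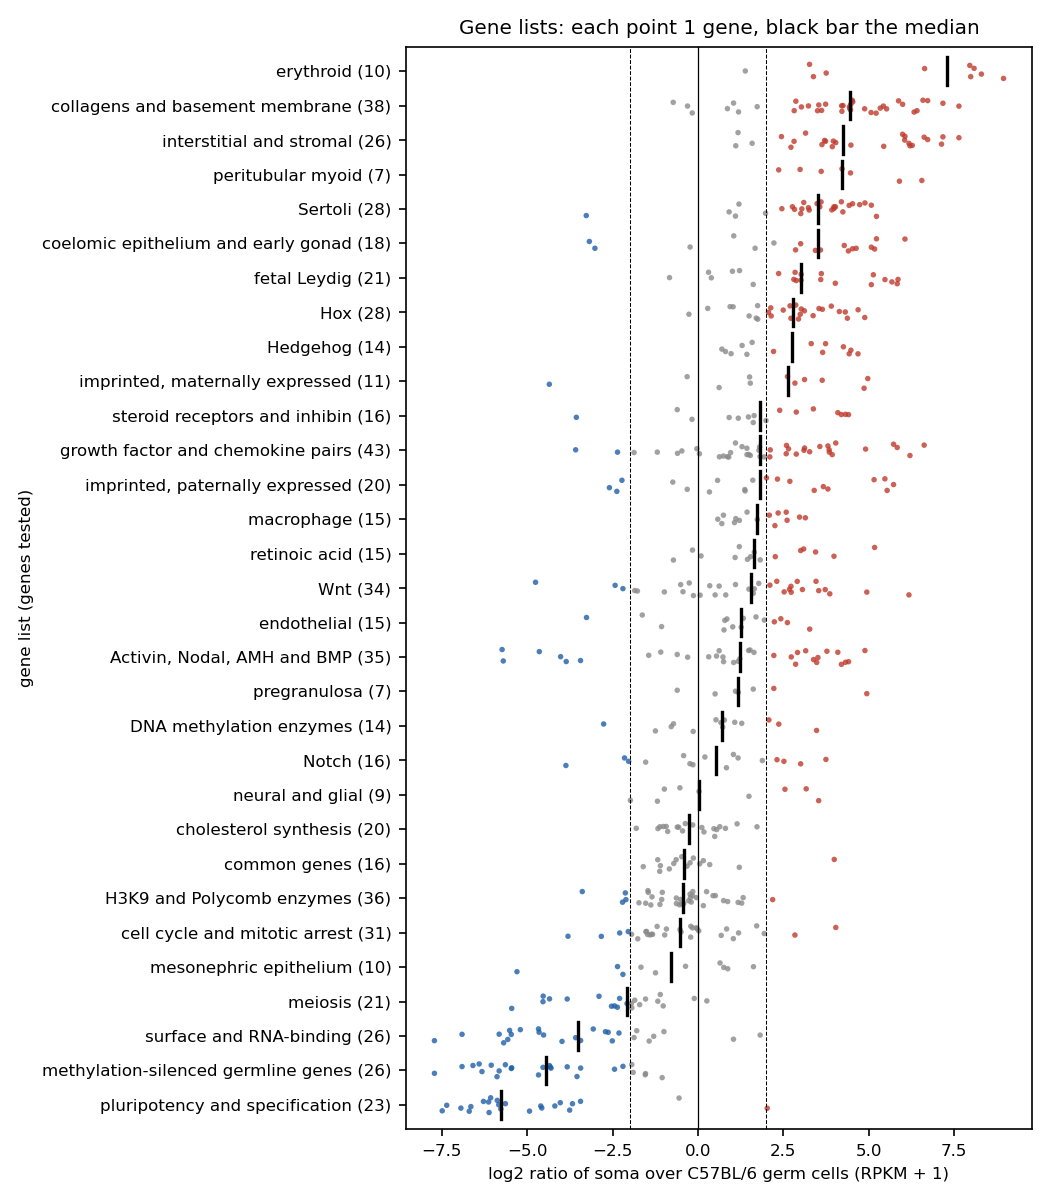
Each row is a gene list with its number of tested genes, each point a gene's log2 ratio of C57BL/6 soma over germ cells (RPKM + 1), red if called higher in soma and blue if called higher in germ cells; the black bar is the list's median, and dashed lines mark 4-fold. Medians of the tested genes run from 7.29 for erythroid genes (3.75 with the untested ones, below the collagens at 4.44) to -5.77 for pluripotency genes, with cholesterol, cell cycle and common genes near 0.

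The RNA levels of blood and vessel genes were unequal in the soma. Globin genes had the highest ratios of all: Hbb-y, an embryonic beta-type globin, had 1082 RPKM in soma and 0 to 8.87 in germ cells, and Hbb-b1, an adult type, 982 and 0 to 2.96. In all, 9 of 10 tested erythroid genes were higher in soma (median log2 ratio 7.29, and 3.75 over all 13 in the table, since the filter removed 3 low genes). Hba-a1 and Hba-a2, and likewise Hbb-b1 and Hbb-b2, are near-identical copies, so the split of reads within each pair is uncertain. The transcription factor genes of red cell precursors, Klf1 and Gata1, were under 1 RPKM and not tested. Summed erythroid RPKM was 3774 in soma, 9.81 in C57BL/6 germ cells, 23.1 in Het1 replicate 1 and 2.58 to 3.22 in the other 4. Macrophage genes were low but present, with 7 of 15 tested higher in soma (46.7%, against 12.8% of all tested genes). They were led by Lyz2 (7.83 RPKM in soma, 0 to 0.53 in germ cells) and C1qb (10.8 and 0 to 1.16). Of the 7, 2 held against every germ cell library. Of 15 tested endothelial genes, 4 were higher in soma (26.7%), Kdr, Emcn, Cdh5 and Eng, and 1 in germ cells (6.67%). The shares of all tested genes were 12.8% and 4.5%. Kdr, the VEGF receptor, had 20.4 RPKM in soma and 1 to 3.83 in germ cells. The gene higher in germ cells was Pecam1 (CD31), a textbook endothelial gene that fetal germ cells also carry, with 3.77 RPKM in soma and 28.0 to 44.9 in germ cells. Its level sets most of the endothelial sum in germ cells.

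Pregranulosa genes, markers of the ovarian counterpart of Sertoli cells, were called in soma at 2 of 7 tested. That is 28.6%, against 12.8% of all tested genes. The called genes were Wnt4, which the male stroma also uses, at 45.7 RPKM against 0.4 to 1.25, and Bmp2 at 6.54 against 0.45 to 3.7. The call of Wnt4 held against every germ cell library and that of Bmp2 did not. The log2 ratio of Bmp2 was 2.22, and 1.57 with the mean of the 5 cross libraries as reference. Foxl2, the defining ovarian factor, was at 0.85 RPKM in soma and at most 0.13 in germ cells, and was not tested. Of 9 tested neural and glial genes 3 were higher in soma (33.3%, against 12.8% of all tested genes), Ngfr, Ednrb and Stmn2. The list's median of 0.03 turned to -0.31 with median centring and -0.78 with quantile normalization.

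Genes of the mesonephric epithelium, the fetal kidney duct attached to the gonad, varied widely between the germ cell libraries. Of 10 tested, 3 were higher in germ cells (Lhx1, Ret and Wnt7a) and 0 in soma, with a median log2 ratio of -0.81. The 3 are 30%, against 4.5% of all tested genes. Lhx1, the 1 gene of these that held against every germ cell library, encodes a factor of the nephric duct that pluripotent cells can express too. It had 0.27 RPKM in soma and 25.8 to 60.3 in germ cells. The sum of the list was 43.9 RPKM in soma, 86.1 in C57BL/6 germ cells, 193 in WT, 82.1 and 170 in Het1 replicates 1 and 2, and 132 and 149 in Het2 replicates 1 and 2. Lhx1 carried much of it: without Lhx1 the sum was 43.6 RPKM in soma, 37.1 in C57BL/6, which turns the direction there, and 56.3 to 133 in the cross libraries. Pax8, a duct factor, repeated the order of the full sum with 1.39 RPKM in soma, 2.08 in C57BL/6, 16.9 in WT, 1.75 and 12.2 in Het1, and 6.01 and 11.8 in Het2. Pax2, Cdh16 and Wnt7a were likewise lowest in C57BL/6 and Het1 replicate 1 among germ cells and highest in WT. In soma these 3 stood at 0.04, 0.3 and 0.25 RPKM. Whether cells of the duct entered the SSEA1-positive fraction of some libraries was not tested.

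**Figure D4:**
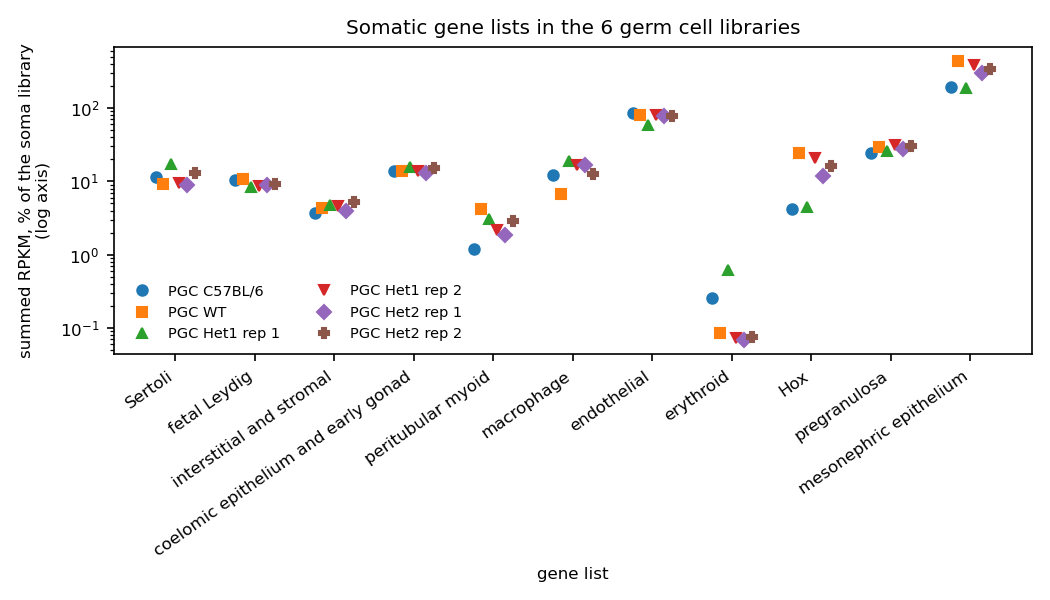
For each somatic gene list and germ cell library, the summed RPKM as a percent of the sum in the soma library, on a log axis, with 1 symbol per library. Stromal genes stay at 3.76 to 5.24% in all 6. The Hox (4.15 to 24.7%) and mesonephric (187 to 440%) lists spread more, with C57BL/6 and Het1 replicate 1 lowest in both. Erythroid (0.068 to 0.613%), myoid (1.20 to 4.20%) and macrophage (6.70 to 19.1%) genes also spread widely, with the libraries in other orders.

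The Hox genes, which give cells their position along the body axis, also varied between the germ cell libraries. Of 28 tested, 20 were higher in soma (71.4%, against 12.8% of all tested genes) and 0 in germ cells (median log2 ratio 2.79). Of the 20, 12 held against every germ cell library. Hoxd9 had 34.5 RPKM in soma and 0.05 to 1.04 in germ cells, Hoxd8 32.3 and 0.61 to 2.94, and Hoxc8 30.2 and 0.06 to 0.63. These 3 had low values in all 6 germ cell libraries. Hoxb8 was different, with 0.77 RPKM in soma, 1.13 in C57BL/6, 11.2 in WT, 0.96 and 9.51 in Het1 replicates 1 and 2, and 4.82 and 9.73 in Het2 replicates 1 and 2. Summed over 39 genes, Hox RNA in germ cells was 4.15% of that in soma in C57BL/6 and 4.41% in Het1 replicate 1, but 24.7% in WT, 21.2% in Het1 replicate 2, and 11.9 and 16.3% in Het2. Over all genes called higher in soma, the median level in the cross libraries was 6.79% of the soma level in Het1 replicate 1, 7.57% in Het2 replicate 1 and 9.16 to 10.5% in the other 3. The C57BL/6 library chose these genes by its low values, and its median of 5.0% is not compared with them.

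The pair Kitl and Kit, on which germ cell survival and migration depend, was called on opposite sides, and both calls held against every germ cell library. Kitl, the ligand, had 25.7 RPKM in soma and 0.87 to 3.37 in germ cells, and Kit, the receptor, had 6.99 RPKM in soma and 35.2 to 94.8 in germ cells. The lowest germ cell value of Kit, in Het1 replicate 1, was still above the soma. The chemokine Cxcl12, which guides germ cells to the gonad, had 63.7 RPKM in soma and 0.96 to 1.72 in germ cells. Its receptor Cxcr4 had 4.92 RPKM in soma and 15.3 to 25.1 in germ cells, without overlap, but its log2 ratio of -1.87 missed the threshold. Gdnf, a Sertoli ligand, had 12.5 RPKM in soma and 0 to 0.65 in germ cells, while its receptor genes were uneven among germ cells: Ret ran from 0.54 in WT to 17.8 in Het1 replicate 1, and Gfra1 from 1.67 in Het1 replicate 1 to 18.0 in WT. WT was thus lowest for Ret and highest for Gfra1, and Het1 replicate 1 the reverse.

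In other pairs both partners were highest in soma, or the ligand was on both sides. Pdgfra and Pdgfrb, receptors of stromal and vessel wall cells, had 179 and 106 RPKM in soma and at most 3.11 in germ cells. By contrast Pdgfa, a ligand of Pdgfra, had 10.99 RPKM in soma and 4.25 to 20.1 in germ cells, which overlap. Igf2, a fetal growth factor, had 456 RPKM in soma and 7.65 to 26.7 in germ cells, and its signalling receptor Igf1r 65.0 and 15.2 to 42.4, which was not called. Vegfa, the ligand of Kdr, had 71.0 RPKM in soma and 2.34 to 9.41 in germ cells. Over the whole list of growth factor and chemokine pairs, 20 of 43 tested genes were higher in soma and 2, Kit and Ret, in germ cells. These are 46.5% and 4.65%, against 12.8% and 4.5% of all tested genes. The call of Ret did not hold against every germ cell library.

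**Figure D5:**
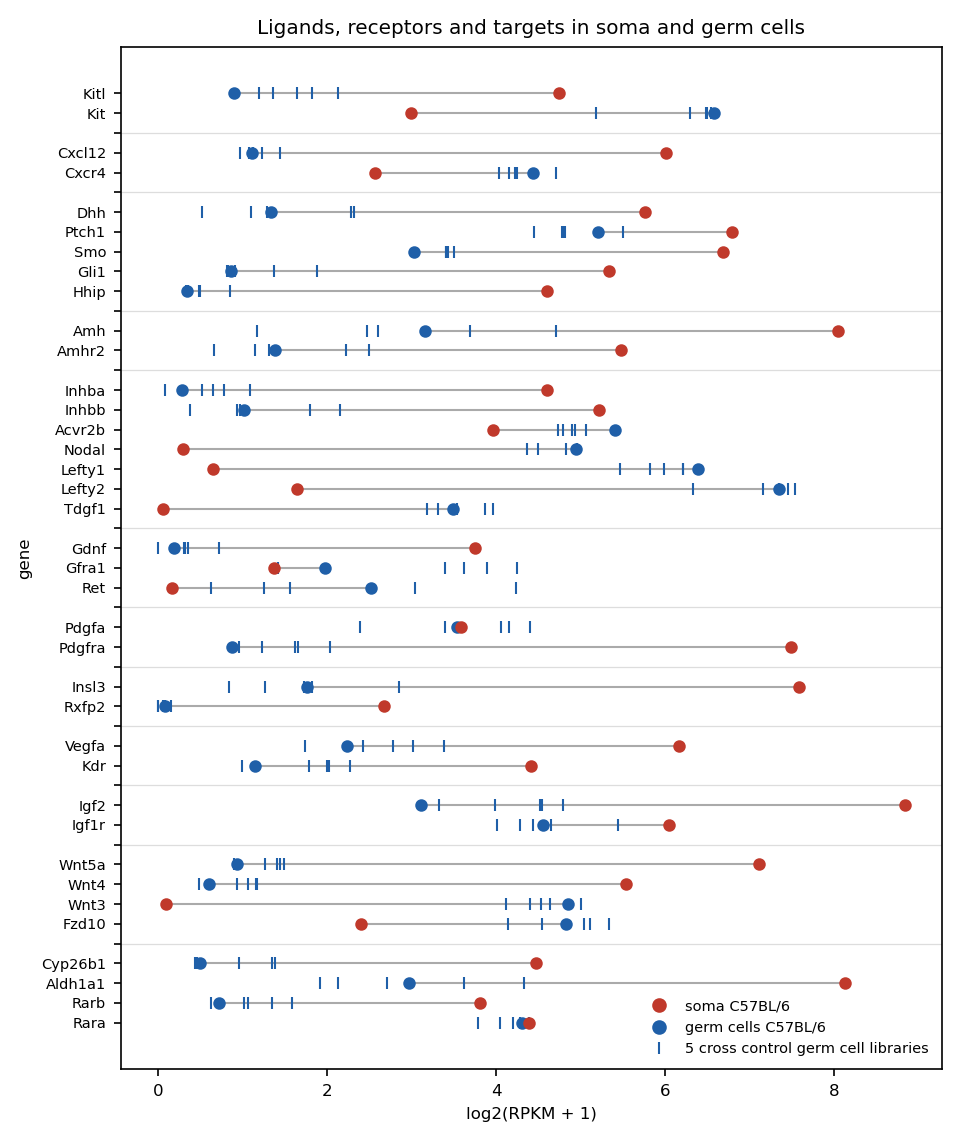
For each ligand, receptor or target, the level as log2(RPKM + 1) in the soma library (red), the C57BL/6 germ cells (blue point) and the 5 cross germ cell libraries (blue ticks), grouped by pathway. Kitl and Cxcl12 are high in soma and their receptors Kit and Cxcr4 in germ cells; Nodal, Lefty1 and Tdgf1 are under 1 RPKM in soma and above 8 RPKM in every germ cell library.

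Hedgehog genes were called in soma only. Of 14 tested genes 8 were higher in soma (57.1%, against 12.8% of all tested genes) and 0 in germ cells (median log2 ratio 2.76). Dhh, the Sertoli ligand, had 53.4 RPKM in soma and 0.43 to 3.99 in germ cells, and the transcription factor and target Gli1 had 39.5 and 0.76 to 2.68. Hhip, a decoy receptor induced by the pathway, had 23.3 RPKM in soma and 0.26 to 0.8 in germ cells. The receptor Ptch1, itself a target, had 110 RPKM in soma yet 20.9 to 44.5 in germ cells, a log2 ratio of 1.58 that was not called. Smo, the signal transducer, had 102 RPKM in soma and 7.19 to 10.3 in germ cells.

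Genes of the TGF-beta superfamily were called in both directions. Of 35 tested genes, 14 were higher in soma (40%), 6 in germ cells (17.1%) and 15 were not called. The shares of all tested genes were 12.8% and 4.5%. The gonadal hormones of the family were in soma: Inha, Inhba and Inhbb, subunits of inhibin and activin, had 68.3, 23.3 and 36.2 RPKM there and at most 3.55 in any germ cell library, and Amhr2, the receptor of Amh, 43.5 and 0.59 to 4.67. The 6 genes in germ cells include Nodal, its co-receptor Tdgf1 (Cripto), its targets and inhibitors Lefty1 and Lefty2, and Gdf3, a Nodal-like ligand. Nodal had 0.23 RPKM in soma and 19.7 to 30.1 in germ cells, Lefty2 2.13 and 79.4 to 185, and Lefty1 0.57 and 43.4 to 82.7. All 6 were called against every germ cell library. The ligands Bmp4 and Bmp7 were not called, at 8.63 and 10.97 RPKM in soma and 10.9 and 24.5 in C57BL/6 germ cells. The activin receptor Acvr2b was expressed on both sides, with 14.7 RPKM in soma and 25.7 to 41.7 in germ cells (log2 ratio -1.44, not called).

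Of 34 tested Wnt genes, 14 were higher in soma (41.2%), 3 in germ cells (8.82%) and 17 were not called. Of all tested genes, 12.8% and 4.5% were higher in soma and in germ cells. The list's median log2 ratio was 1.55, and 0.95 over all 38 in the table. Against every germ cell library 11 of the soma calls held, and of the germ cell calls only that of Wnt3. Wnt5a, a stromal ligand, had 138 RPKM in soma and 0.86 to 1.81 in germ cells. Wnt3, a ligand that acts on the embryo's early cells, had 0.07 RPKM in soma and 16.4 to 31.2 in germ cells. The receptor Fzd10 had 4.3 RPKM in soma and 16.7 to 39.5 in germ cells. The third gene, Wnt7a, is one of the mesonephric genes above and ran from 2.67 to 25.7 RPKM among germ cells. Axin2, the common readout of the canonical pathway, was not called, with 19.1 RPKM in soma and 10.9 to 15.1 in germ cells.

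Notch genes split, with 4 of 16 tested higher in soma (25%, against 12.8% of all tested genes) and 3 in germ cells (18.8%, against 4.5%). Of these calls, 2 and 1 held against every germ cell library. The ligand Jag1 and the target Heyl had 23.5 and 13.7 RPKM in soma and at most 7.71 and 0.34 in germ cells. The ligands Dll3 and Dll1 and the target Hey1 were in germ cells, with Dll3 at 0.27 RPKM in soma and 15.2 to 20.7. Hey1, at 9.68 RPKM in soma and 29.9 to 48.2 in germ cells, lies just past the threshold. Notch2 and Notch3, the most abundant receptors, were not called.

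Retinoic acid, which starts meiosis in the ovary, is made and destroyed by somatic cells. Cyp26b1, the Sertoli enzyme that degrades it, had 21.3 RPKM in soma and 0.36 to 1.62 in germ cells. Aldh1a1 and Aldh1a2, which make it, had 280 and 77.5 RPKM in soma, and 2.77 to 19.2 and 8.79 to 13.3 in germ cells. In all 6 of 15 tested genes were higher in soma (40%, against 12.8% of all tested genes) and 0 in germ cells. The receptor Rara was not called, with 20.1 RPKM in soma and 12.8 to 19.98 in germ cells, while Rarb, a receptor and target, had 13.1 and 0.55 to 2.01.

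Among nuclear receptors and inhibin genes 7 of 16 tested were higher in soma (43.8%, against 12.8% of all tested genes). Nr5a2, the relative of Nr5a1 that works in pluripotent cells, was the gene higher in germ cells, at 0.36 RPKM in soma and 14.4 to 20.7. Fshr was at 0.84 RPKM in soma, listed at 0 in germ cells, and not tested.

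Imprinted genes, of which only the maternal or the paternal copy is active in most tissues, were called in both directions. Of 20 tested paternally expressed genes 10 were higher in soma and 3 in germ cells, and of 11 maternally expressed genes 6 and 1. That is 50% and 15% for the paternal list and 54.5% and 9.09% for the maternal, against 12.8% and 4.5% of all tested genes. Soma thus led in both lists, as it did among all called genes (74.0% as deposited). Against every germ cell library 7 of the 10 and 3 of the 6 soma calls held. Mest had 481 RPKM in soma and 30.8 to 84.7 in germ cells, Plagl1 154 and 1.82 to 6.97, and Dlk1 95.1 and 1.7 to 10.5. Grb10, a maternally expressed growth inhibitor, had 204 RPKM in soma and 4.5 to 22.8 in germ cells. Snrpn, Usp29, Dio3 and Ascl2 were the genes higher in germ cells. Snrpn, a splicing protein gene, had 11.6 RPKM in soma and 67.6 to 75.6 in germ cells, the tightest germ cell range of these. Peg3 was not called, at 304 RPKM in soma and 55.3 to 117 in germ cells.

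Of 14 tested DNA methylation genes 3 were higher in soma and 1 in germ cells, 28.6% in all against 17.3% of all tested genes. The germ cell gene was Tet1, which oxidizes methylcytosine, at 14.9 RPKM in soma and 53.2 to 107 in germ cells, and the soma genes were its relatives Tet2 and Tet3 and the de novo methyltransferase Dnmt3a, the last at 54.9 RPKM and 9.86 to 12.9. Dnmt3a and Tet3 held against every germ cell library, and Tet1 and Tet2 did not. Dnmt1, which copies methylation at replication, had 72.2 RPKM in soma and 149 to 192 in germ cells and was not called. Dnmt3l, which male germ cells switch on later, was listed at 0 in soma and reached 1.23 RPKM only in Het1 replicate 1. Of 36 tested H3K9 and Polycomb genes, 13.9% were called, against 17.3% of all tested genes. Only Kdm6b was higher in soma (1 gene, 2.78%, against 12.8%). Higher in germ cells were 4 (11.1%, against 4.5%): Cbx7, L3mbtl2, Pcgf6 and Suv39h2. Of these 5, Cbx7 and Pcgf6 held against every germ cell library. Cbx7, a Polycomb reader, had 0.86 RPKM in soma and 14.3 to 20.4 in germ cells. Setdb1 was at 33.0 RPKM in soma, 72.6 in C57BL/6 germ cells, 55.4 in WT, 49.0 and 37.5 in Het1 and 45.8 and 52.0 in Het2. The 5 cross libraries all lay below C57BL/6, and soma lay below all 6. The alleles of the cross and its unstated background strain cannot be told apart here, and the cause was not tested.

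Of 31 tested cell cycle genes, 4 were higher in germ cells (12.9%, against 4.5% of all tested genes) and 2 in soma (6.45%, against 12.8%), with a median log2 ratio of -0.53. Against every germ cell library, neither soma call held and 2 of the germ cell calls did, Cdkn1a and Cdkn2a. Ccnd2, a cyclin of G1, had 143 RPKM in soma and 7.79 to 36.5 in germ cells. The inhibitor Cdkn1c (p57) had 277 RPKM in soma and 37.9 to 74.2 in germ cells. Cdkn2a, Cdkn2b and Cdkn1a, inhibitors that act in cell cycle arrest, and the mitotic cyclin Ccnb1 were higher in germ cells, with Cdkn2a at 0.15 RPKM in soma and 10.2 to 24.1. Mki67, the proliferation marker, was not called, at 115 RPKM in soma and 61.3 to 172 in germ cells. Het1 replicate 1 had the lowest Mki67 and the highest Cdkn2a among germ cells.

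A list of genes that all cells use was mostly uncalled. Of 30 listed, 16 were in the data and tested, with no ribosomal protein gene among them. Of these 16, 1 was called (6.25%, against 17.3% of all tested genes), and their median log2 ratio was -0.40, on the germ cell side. Nucleoporins (-1.54), RNA polymerase subunits (-1.20) and proteasome subunits (-1.10), described below, lay further to that side. Eef1a1 had 2215 RPKM in soma and 2602 to 3635 in germ cells, and Actb 1391 and 602 to 1030. The called gene was B2m, the light chain of MHC class I, at 53.6 RPKM in soma and 2.44 to 14.7 in germ cells. Gapdh and Pgk1, with near-identical copies in the genome, were listed at 6.33 to 11.1 RPKM and 4.37 to 11.1 across the 7 libraries, so their levels are uncertain.

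Histone marks at the promoters gave a readout that the RNA rule did not use. Each mark has 1 library: H3K27me3, the Polycomb mark, in male Het germ cells (Setdb1 flox/-), and H3K9me3 in the same kind of cells and in wildtype C57BL/6 male soma. Values are RPKM within 1 kb on either side of the start. H3K27me3 in germ cells reached 1 RPKM at 32.3% of promoters of genes higher in soma, 5.79% of those of genes higher in germ cells, 6.22% of tested genes called neither and 9.53% of all tested. The medians were 0.714, 0.215, 0.174 and 0.196 RPKM. Most Hox promoters, 38 of 39, passed 1 RPKM. Gata4, Sox9 and Wt1 stood at 1.94, 1.70 and 1.41 RPKM, whereas Col3a1 and Amh were at 0.165 and 0.188. Genes with far more RNA in soma thus had either a high or a low level of the mark in germ cells.

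H3K9me3 in germ cells reached 1 RPKM at few promoters of tested genes (0.416%), and at 4 (13.8%) of the 29 promoters of methylation-silenced germline genes. Hox promoters (4 of 39, 10.3%) and those of paternally expressed imprinted genes (2 of 20, 10%) came near that share. In the silenced list the 4 were Dpep3 (1.62 RPKM), Mei1 (1.03), Brdt (1.015) and Tex12 (1.015). Of these only Tex12 was called higher in germ cells, and Dpep3 and Mei1 had at most 0.08 RPKM of RNA in either C57BL/6 library. In the soma library the baseline was higher, with a median of 0.77 RPKM over tested genes against 0.101 in the germ cell library, so values are compared within a library only. There 19.7% of tested promoters passed 1 RPKM, 23.5% of those of genes higher in soma, 27.3% of those of genes higher in germ cells, and 16 of 29 (55.2%) in the methylation-silenced list. Dazl stood at 1.35 RPKM, Pou5f1 at 1.63 and Lhx1 at 1.62 in soma. So did Amh, at 1.21 RPKM, a gene with 263 RPKM of RNA there. The endothelial and mesonephric lists had shares of 63.2% and 69.2%.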

How the data were processed

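RNA was measured in 1 soma and 6 control male germ cell libraries at E13.5. Per the file headers, the deposited values are RPKM per Ensembl gene for RNA, and RPKM within 1 kb of the start for the marks, as the authors made them; no rescaling was applied. Per the submitters' processing notes, BWA, SAMtools and mm9 were used; for versions, read counter, strand setting and scaling total the entry is: not given in the sources used here. So reads of overlapping or antisense genes cannot be told apart. Depth is unknown. Gene identifiers matched the reference names for 20551 of 22138, and 25 blank or numeric names were replaced from it. Where a symbol had several rows, lists used the row with the highest mean. The other 9 RNA columns (KO and female) were not used.

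Soma was set against C57BL/6 germ cells by the rule of size stated above (pseudocount 1, filter 1 RPKM, 4-fold, outside the 6 germ cell libraries). With 1 library a side no p-value is given. As an alternative, limma 3.58.1 in R 4.3.3 (two-sided, Benjamini-Hochberg adjusted p threshold 0.05) compared soma with the 6 germ cell libraries. It assumes that the lone soma library varies as they do. The fit was tried on simulated data that share this assumption, so they cannot test it. Other alternatives changed the pseudocount, filter, fold, reference and scaling, or left out a library. Named genes are the 20 highest and 20 lowest log2 ratios among called genes at 10 RPKM or more, without predicted gene names, members of 31 gene lists (677 genes), and the common genes. Members and lists were chosen with earlier results of these data known, and motifs and lists are described by counts and medians without tests. The genome of the files' build was not used here, and promoter sequences and their coordinates are RefSeq's, of GRCm38.p6. List sums without Dmrt1 or Lhx1 were chosen after seeing the data. A few genes of the lists enter the counts but are not reported here by name.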

Additional observations from a re-analysis of the deposited data

Results flagged for a closer look

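In 70 list sums and named genes, each of the 5 cross germ cell libraries was checked for 1 value far from the other 4, by the gap to its nearest neighbour over the whole range (limit 0.71). The limit flags about 1 in 20 groups of independent, normally distributed values. These groups overlap: globin genes enter the erythroid sum, and Dppa4 and Lin28a the pluripotency sum. Globin values also lie near 0, so that rate does not apply here. A total of 17 groups were flagged. In 15 of them Het1 replicate 1 was the library apart. It had the highest summed RPKM of the pluripotency list (3149, the others 2388 to 2529), the meiosis list (547, the others 451 to 475), the retinoic acid list (144, the others 105 to 111) and the erythroid list (23.1, the others 2.58 to 3.22), and the lowest of the endothelial list (47.3, the others 64.1 to 66.6). It was also highest for 6 globin genes that were at 0 to 0.76 RPKM in the others: Hbb-y (8.87 RPKM), Hba-a1 (3.54), Hba-a2 (2.91), Hbb-b1 (2.4), Hbb-b2 (1.96) and Hba-x (1.47). The same library was highest for the germ cell genes Dppa4 (262 RPKM, the others 105 to 132), Tex19.1 (216, the others 88.2 to 119), Fkbp6 (206, the others 84.2 to 112) and Lin28a (129, the others 67.5 to 77.9). Het2 replicate 2 was highest for the stromal gene Dcn (6.18 RPKM, the others 0.48 to 1.16). WT was lowest for the pericyte gene Pdgfrb (0.06 RPKM, the others 0.92 to 1.11).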

How the results depend on the processing

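There were 1720 genes higher in soma and 605 genes higher in germ cells. They were 2769 and 986 with a pseudocount of 0.1, and 3779 and 2340 at a 2-fold threshold. They were 1066 and 383 when 4-fold was asked against every germ cell library, which was chosen after seeing the data. With median centring, germ cells were higher at 970 genes, and with quantile normalization at 952, beside 1358 and 1371 higher in soma. Leaving out 1 cross library at a time (leave-one-out) gave 1720 to 1722 and 605 to 606, which says little on stability, since these libraries could set aside only 3 and 2 genes. With a single cross library as the reference they were 1357 to 1655 and 627 to 802. By limma, 1502 and 606 genes passed, of which 1470 and 525 were also called by the rule of size. The filter at 10 RPKM gave 1230 and 460. Under 3 alternatives per listed or named gene, 0 of 942 values of called genes and 50 of 822 values of uncalled genes changed sign. Without the filter, medians fell to 3.75 for erythroid, 3.61 for myoid, 2.21 for Hedgehog, 2.06 for Hox, 1.53 for maternally expressed and 0.95 for Wnt genes. In all, 3 of 155 list medians changed sign, as given for the neural and cholesterol lists. No paired analysis was possible because the soma and C57BL/6 germ cell libraries carry no replicate numbers and are 1 each. With 1 soma library, its variation and that between embryos were not measured, and without counts no limit of detection can be given. The cause of these shifts was not tested.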

Other observations

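Gene families grouped by symbol, chosen after their values were seen, add to the list of what differs (12.8% of all tested genes were higher in soma and 4.5% in germ cells). Secreted and matrix-modelling families leaned to soma: 15 of 20 tested ADAMTS proteases, 13 of 19 semaphorins, which are guidance ligands, 9 of 14 serpins, and 5 of 6 IGF binding proteins were higher in soma. Their median log2 ratios were 2.83, 2.21, 3.02 and 4.02. The only called gene of these families that was higher in germ cells was 1 semaphorin. Of 18 tested integrins 8 were higher in soma and 1 in germ cells, and of 11 matrix metalloproteinases 5 and 0.

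Germ cells had 9 of 16 tested Tex genes and 6 of 11 tested Rhox homeobox genes, a cluster on the X chromosome, with 0 higher in soma in either. Housekeeping families lay on the germ cell side by their medians while few members were called: nucleoporins at -1.54 with 2 of 21 called, Mcm replication genes at -1.42 with 1 of 10, RNA polymerase subunits at -1.20 with 1 of 27, proteasome subunits at -1.10 with 2 of 38, and translation initiation factors at -0.67 with 0 of 57. Of 348 tested zinc finger genes 30 (8.62%) were higher in soma and 10 (2.87%) in germ cells, both below the shares of all tested genes. Of 224 solute carriers 32 (14.3%) and 8 (3.57%) were.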
